A study of Mus musculus with 9 samples.

Results

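The 10 genes described here lie in or beside Cyfip2 on mouse chromosome 11: Fndc9, Nipal4, Adam19, Med7, Havcr2, Thg1l, Lsm11, Clint1, Sgcd and Ebf1. They are 10 of the 18820 genes in the table and were taken by name and position, in order of their distance from Cyfip2. Polyadenylated RNA was sequenced from cortex taken at embryonic day 18.5 from C57BL/6J mice of 3 Cyfip2 genotypes: wild type (WT), heterozygote (Het) and knockout (KO), with 3 libraries each and no treatment named. The labels describe neither the mutant allele nor how it was made. The labels do not state that each library is a different embryo. Het and KO each held libraries of both sexes (below), so each of these genotypes came from more than 1 embryo; for WT the spread between libraries may be technical. All values are normalized counts, which are gene counts divided by a size factor for each library.

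The product of Cyfip2 belongs to the WAVE regulatory complex, which relays signals from the GTPase Rac to the Arp2/3 complex and so controls branching of actin filaments. Fndc9 is a nested gene, a small transcription unit held within an intron of a larger gene on the opposite strand, and it encodes a protein with a fibronectin type III domain, a fold common in adhesion proteins and receptors. The genes around Cyfip2 have unrelated roles: transcription (Med7, Ebf1), RNA processing (Thg1l, Lsm11), membrane transport and trafficking (Nipal4, Clint1), proteolysis at the cell surface (Adam19), muscle membrane (Sgcd) and immune signalling (Havcr2).

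In the GENCODE annotation of build GRCm38, Cyfip2 (ENSMUSG00000020340) spans chr11:46193850-46312859 on the minus strand. Fndc9 (ENSMUSG00000048721) spans chr11:46235531-46239872 on the plus strand, 4342 bases with 2 exons of 66 and 2224 bases. No Cyfip2 exon overlaps it. It sits in intron 23 of the Cyfip2 transcript with the most exons (31), an intron of 15798 bases, and its end lies 131 bases from the Cyfip2 exon that starts at 46240004. On the side of lower coordinates, beyond the end of Cyfip2, come Nipal4 (27.3 kb away, minus strand), Adam19 (46.5 kb, plus), Thg1l (238 kb, minus), Lsm11 (248.9 kb, minus), Clint1 (283 kb, plus) and, much farther, Ebf1 (1186 kb, plus). On the other side, upstream of the start of Cyfip2, come Med7 (124 kb, plus), Havcr2 (142 kb, plus) and Sgcd (583 kb, minus).

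**Figure D1:**
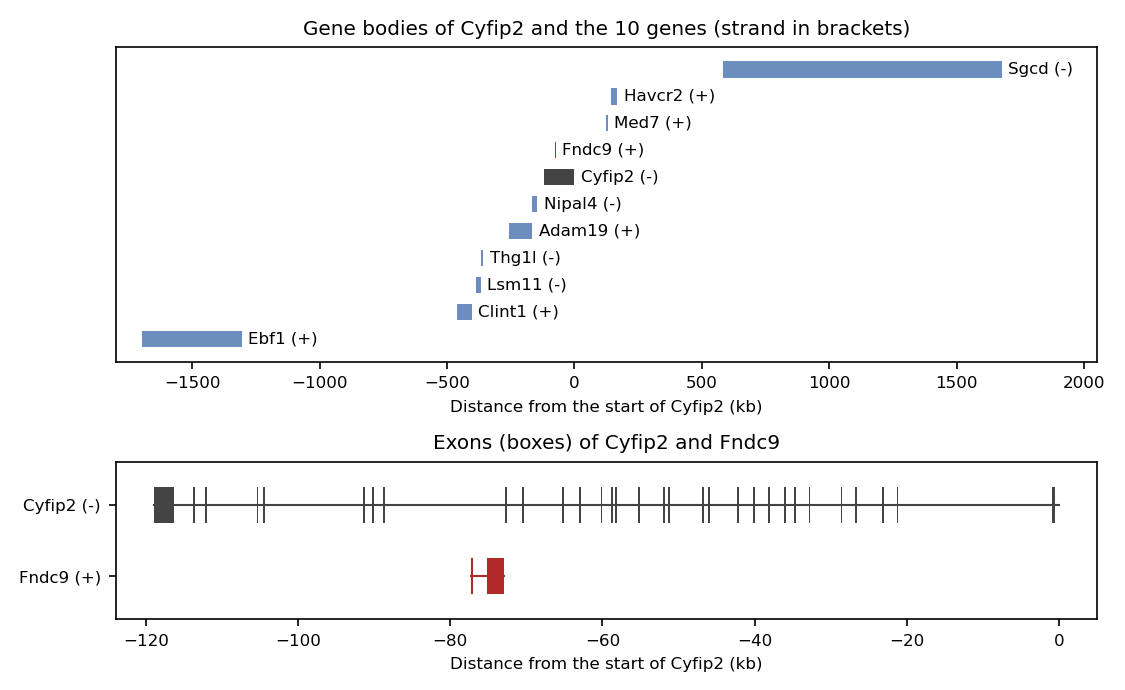
Upper panel: gene bodies of Cyfip2 (dark), Fndc9 (red) and the other 9 genes (blue) by distance from the start of Cyfip2 in kb, with their strand. Lower panel: exons of Cyfip2 and Fndc9 on the same kind of axis, with both Fndc9 exons inside intron 23 of Cyfip2.

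For 9 of the 10 genes RefSeq (GRCm38.p6) gives the sequence before a transcription start. The 250 bases before the RefSeq start are shown for Fndc9, Med7 and Thg1l, because these are the genes whose KO libraries all lay below all WT libraries. Letters run 5′ to 3′ on the gene's own strand, CG dinucleotides are in capitals, and for Med7 and Thg1l the start farthest upstream of 2 is used. GENCODE places the gene start earlier, so the last 26 bases of the Fndc9 window and the last 22 of the Med7 window are exonic there. The Fndc9 window, which itself lies in intron 23 of Cyfip2, is chr11:46235307-46235556 (plus strand), the Med7 window chr11:46436697-46436946 (plus) and the Thg1l window chr11:45955504-45955753 (minus).
Fndc9: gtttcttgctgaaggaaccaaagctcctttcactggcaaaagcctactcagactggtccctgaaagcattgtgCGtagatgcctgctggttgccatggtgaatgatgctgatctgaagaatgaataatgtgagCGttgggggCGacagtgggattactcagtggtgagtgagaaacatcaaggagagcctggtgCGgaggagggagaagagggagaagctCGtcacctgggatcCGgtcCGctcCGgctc
Med7: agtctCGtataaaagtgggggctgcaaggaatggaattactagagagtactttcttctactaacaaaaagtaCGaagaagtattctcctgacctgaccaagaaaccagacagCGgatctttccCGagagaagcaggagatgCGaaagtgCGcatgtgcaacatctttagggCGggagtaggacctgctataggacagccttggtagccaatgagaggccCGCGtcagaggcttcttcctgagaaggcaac
Thg1l: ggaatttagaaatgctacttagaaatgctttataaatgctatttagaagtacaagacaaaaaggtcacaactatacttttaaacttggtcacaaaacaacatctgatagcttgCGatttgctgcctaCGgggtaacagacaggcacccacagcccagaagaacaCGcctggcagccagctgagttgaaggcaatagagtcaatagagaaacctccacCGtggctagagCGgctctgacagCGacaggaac
The windows hold 8, 9 and 6 CG dinucleotides, beside a median of 6 over 32851 RefSeq promoter windows of this length. Searched on both strands were the TATA box as TATAAA, the CCAAT box by that spelling and the Sp1 core as GGGCGG, none of which contains another. Fndc9 held none of the 3, Med7 held all 3, and Thg1l held only TATAAA. The search took no account of position. In Med7 and Thg1l, TATAAA lies near the 5′ end of the printed window, far from the start. At their other start, Med7 held the CCAAT box and the Sp1 core, and Thg1l held the same pair, with 19 CG dinucleotides. Over all the windows, 12.4% held the TATA box, 33.8% the CCAAT box and 32.7% the Sp1 core. No measurement of these libraries bears on the promoters directly, so the matches are a description of letters.

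Cyfip2 itself had normalized counts of 10169, 10345 and 11174 in WT, 8969, 9779 and 9882 in Het and 7900, 7522 and 8255 in KO. The genotypes do not overlap, and the KO mean was 74.7% of the WT mean. Most of the Cyfip2 signal thus remained in the libraries labelled KO. The log2 difference between KO and WT was -0.42 ± 0.06 (SE; limma adjusted p = 0.678).

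Fndc9 was the gene of the 10 that differed most. Its normalized counts were 29.4, 64.6 and 34.1 in WT, 17.5, 27.4 and 18.3 in Het, and 2.46, 4.50 and 0.914 in KO. Every WT library lay above every Het library, and every Het library lay far above every KO library. The means were 42.7 ± 19.1 (SD, n = 3) in WT, 21.1 ± 5.54 in Het and 2.63 ± 1.80 in KO, so that Het stood at 49.3% and KO at 6.15% of WT. In bulk tissue, fewer cells of a type and less RNA per cell cannot be told apart, here or for the other genes. The WT mean rests on a wide spread, since WT replicate 2 had about as much Fndc9 as the other WT libraries together. Without that library the log2 difference between Het and WT was -0.59 ± 0.52, against -0.93 ± 0.48 with it.

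These values rest on few reads. Low values in a library cluster at multiples of a step worth about 1 read, and dividing by that step gives about 25, 96 and 36 Fndc9 reads in WT, 17, 30 and 17 in Het, and 2, 4 and 1 in KO. After allowing for depth, 7 reads in KO against 157 in WT put KO at 5.37% of WT, with a 95% interval of 2.12% to 11.3%. Het stood at 46.1% of WT (33.9% to 62.0%, 64 reads) and KO at 11.6% of Het (4.50% to 25.4%). The intervals are exact and cover counting error only, not the spread between libraries. WT replicate 2 was also the deepest library, at about 54.4 M reads (M, mega) against 29.5 to 40.8 M in the others.

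On the log2(value + 1) scale, Fndc9 differed by -3.64 ± 0.48 (SE; 95% interval -4.72 to -2.55) between KO and WT. That was the smallest p among 15069 genes tested, but the adjusted p was 0.589 (limma, Benjamini-Hochberg over all genes). The difference was -0.93 ± 0.48 between Het and WT (adjusted p = 1.00) and -2.71 ± 0.48 between KO and Het (adjusted p = 0.942; the second smallest p). This scale understates changes of genes with low values. In the exact permutation test of 3 libraries against 3, Fndc9 gave p = 0.1 (two-sided) in each of the 3 pairs of genotypes, the smallest p this design allows. Against the middle of the WT and KO means, the Het mean was 0.89 ± 0.41 higher in log2 units (adjusted p = 0.992 with limma). That value was 0.48 with a pseudocount of 5 and 1.34 without the libraries holding olfactory bulb RNA. On the scale of normalized counts, Het (21.1) did not lie above the middle of 42.7 and 2.63.

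Fndc9 was lower in KO also relative to its host gene. Per 1000 normalized counts of Cyfip2 there were 2.89, 6.24 and 3.05 of Fndc9 in WT, 1.95, 2.81 and 1.85 in Het, and 0.311, 0.599 and 0.111 in KO. The ratio in KO thus lay below that in every WT and Het library. Here Fndc9 and Cyfip2 run on opposite strands of the same DNA. The kit keeps strand, but no source used here says whether the counting used it, so how far reads of Cyfip2 pre-mRNA entered the Fndc9 value cannot be told apart from Fndc9 transcripts.

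**Figure D2:**
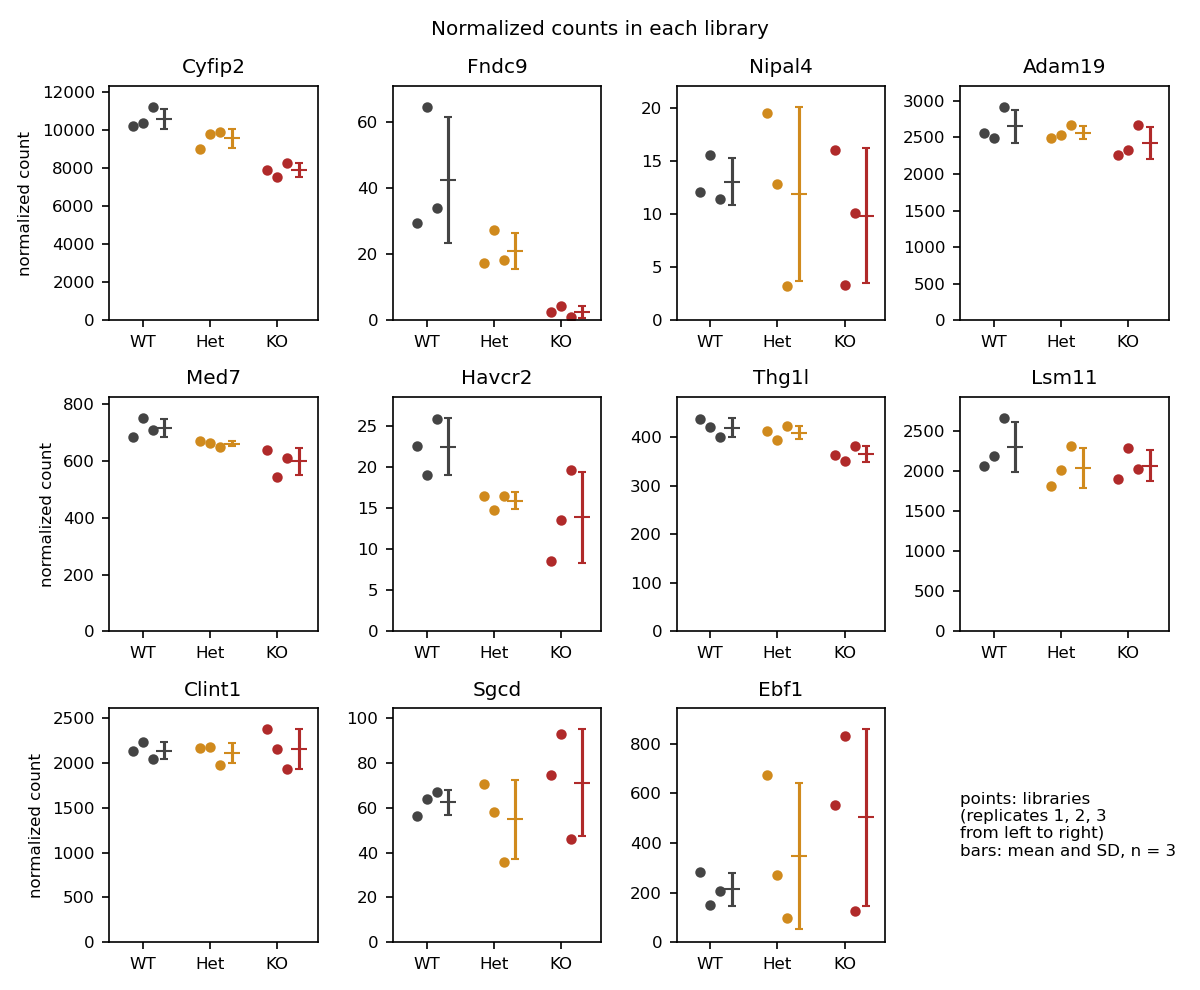
Normalized counts (vertical axes, each from 0) of Cyfip2 and the 10 genes in the 3 libraries of each genotype, with mean and SD. Fndc9 runs from 29.4 to 64.6 in WT down to 0.914 to 4.50 in KO, and in no other gene was the KO mean under 61.7% of the WT mean.

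No gene passed an adjusted p of 0.05 in any pair of genotypes with limma, which is 0% of 15069, so none of the 10 did. At an unadjusted p under 0.05, 96 genes (0.637%) were lower and 82 higher in KO than in WT, and among the 10 genes Fndc9 and Med7 were lower. For Het against WT the unadjusted counts were 97 lower (0.644%) and 145 higher, with none of the 10, and for KO against Het 327 lower (2.17%) and 214 higher, with Fndc9. Counting genes whose libraries do not overlap, 3.3% of all genes were lower in KO than in WT, and 3 of the 10 were: Fndc9, Med7 and Thg1l. The shares were 3.31% for Het below WT (Fndc9, Med7 and Havcr2) and 4.68% for KO below Het (Fndc9, Med7 and Thg1l). None of the 10 was higher without overlap in any pair, beside 3.17%, 3.36% and 3.15% of all genes for KO above WT, Het above WT and KO above Het. The 3 pairs share libraries, so these counts are not independent of each other.

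Med7 (ENSMUSG00000020397, chr11:46436925-46442721) encodes a subunit of the middle module of Mediator, the complex that links transcription factors to RNA polymerase II. Its normalized counts were 686, 751 and 711 in WT, 671, 663 and 651 in Het, and 640, 546 and 611 in KO. The 3 genotypes do not overlap, in the order WT, Het, KO. Het had 92.4% and KO 83.6% of the WT mean. The log2 differences were -0.26 ± 0.08 (95% interval -0.45 to -0.07) for KO against WT and -0.11 ± 0.08 for Het against WT. For KO against WT its p was the 28th smallest (limma adjusted p = 1.00, Benjamini-Hochberg). The exact permutation p was 0.1 in each pair.

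Only 6 of the 15069 genes (0.0398%) had all WT above all Het and all Het above all KO libraries. Besides Fndc9 and Med7 these were Cyfip2, Ndufs7, Pcdhb3 and Gpr62, of which the last 3 were named after their values were seen and none lies on chromosome 11. The opposite order occurred in 1 gene, Slc17a5. The sizes differed widely: KO against WT gave -0.07 ± 0.05 (log2) for Ndufs7, a subunit of mitochondrial complex I, -0.42 ± 0.11 for the protocadherin Pcdhb3 and -1.09 ± 0.31 for the receptor Gpr62.

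Thg1l (ENSMUSG00000011254, chr11:45946843-45955494) encodes the enzyme that adds a guanosine to the 5′ end of histidine tRNA. Its normalized counts were 439, 421 and 401 in WT, 412, 395 and 423 in Het, and 363, 350 and 383 in KO. The KO libraries lay below all 6 others, and WT and Het overlapped. KO had 87.0% of the WT mean (log2 -0.20 ± 0.09; 95% interval -0.41 to 0.0037), and Het 97.6% (-0.04 ± 0.09).

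Havcr2 (ENSMUSG00000020399, chr11:46454935-46481255) encodes TIM-3, an inhibitory receptor of T cells that microglia also carry. Its normalized counts were 22.6, 19.0 and 25.9 in WT, 16.5, 14.8 and 16.5 in Het, and 8.52, 13.6 and 19.6 in KO, each from about 7 to 28 reads. All Het libraries lay below all WT libraries, but KO replicate 3 lay within the WT range. The log2 difference was -0.72 ± 0.34 for KO against WT and -0.46 ± 0.34 for Het against WT. KO replicate 3 is the library of its genotype without olfactory bulb RNA (below). Without the libraries that hold such RNA, the KO difference was -0.08, and without KO replicate 1 alone it was -0.43. The 8 microglial markers, led by Csf1r, had no member at 0, and their summed normalized counts were 2302 to 2424 in WT, 1592 to 2808 in Het and 2298 to 2965 in KO. The part of these cells in the Havcr2 values was not tested.

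In the 2 genes closest to the end of Cyfip2 the libraries of all 3 genotypes overlapped. Nipal4 (ENSMUSG00000020411, chr11:46148155-46166508), a NIPA-like protein taken to transport magnesium and known for its part in the skin barrier, was scarce, with normalized counts of 12.1, 15.6 and 11.4 in WT, 19.5, 12.8 and 3.23 in Het, and 16.0, 3.37 and 10.1 in KO. Both its highest and its lowest value were in Het, and the KO difference of -0.57 had a 95% interval from -2.10 to 0.96. It was -0.02 without KO replicate 2 and -0.9996 without KO replicate 1. Adam19 (ENSMUSG00000011256, chr11:46055992-46147343), a membrane metalloprotease with a disintegrin domain, was abundant and steady at 2555, 2494 and 2912 in WT, 2495, 2537 and 2667 in Het, and 2258, 2332 and 2668 in KO. Its difference between KO and WT was -0.13, with a 95% interval from -0.32 to 0.05.

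Lsm11 and Clint1 lie farther along the same side. Lsm11 (ENSMUSG00000044847, chr11:45928269-45944935) is a ring protein of the U7 snRNP, which cuts the 3′ end of histone mRNA. It measured 2062, 2188 and 2661 in WT, 1813, 2012 and 2312 in Het, and 1903, 2285 and 2024 in KO (log2 -0.15 ± 0.12 for KO against WT), with all genotypes overlapping. Clint1 (ENSMUSG00000006169, chr11:45852051-45910625), also called epsinR and a clathrin adaptor of vesicles between the trans-Golgi network and endosomes, measured 2131, 2229 and 2043 in WT, 2166, 2176 and 1978 in Het, and 2372, 2148 and 1934 in KO. Its mean in KO was 101% of WT and its difference 0.01 ± 0.08, with a 95% interval of -0.18 to 0.19.

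Sgcd and Ebf1, the genes farthest from Cyfip2, were high in the same 3 libraries, which come from more than 1 genotype. Ebf1 (ENSMUSG00000057098, chr11:44617317-45008091) is a transcription factor of B cells that also acts in differentiating striatal neurons. Its normalized counts were 282, 152 and 206 in WT, 674, 271 and 99.3 in Het, and 554, 828 and 125 in KO. Het replicate 1 and KO replicates 1 and 2 were the high libraries, at 554 to 828, and the other 6 lay between 99.3 and 282. The KO difference was 0.90 ± 0.80, with a 95% interval from -0.93 to 2.72. It was 0.35 without KO replicate 2 and 1.71 without KO replicate 3. Sgcd (ENSMUSG00000020354, chr11:46896253-47988969), the delta subunit of the sarcoglycan complex that ties dystrophin to the muscle membrane, measured 56.1, 64.0 and 66.8 in WT, 70.4, 58.2 and 35.8 in Het, and 74.5, 92.9 and 46.0 in KO. The same 3 libraries were its highest, at 70.4 to 92.9 against 35.8 to 66.8 (KO against WT 0.14 ± 0.33).

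Those 3 libraries had no reads of the Y-linked gene Ddx3y (1394 to 1674 in the other 6) and so came from females, whereas all WT libraries had Y-linked RNA. Together with WT replicate 3 they also held RNA of the olfactory bulb. Cdhr1 had 2138 to 3436 normalized counts in these 4 libraries against 21.8 to 53.1 in the other 5. Of the other listed bulb markers, Tbx21, Th and Sp8 were likewise higher in the 4 without overlap. Doc2g was not, at 610 to 682 against 646 to 745. In the 3 female libraries the median log2 level of the 10 striatal markers, led by Ppp1r1b, was 1.44, 1.33 and 1.64. It was -0.74 to 0.24 elsewhere, each relative to the WT mean. Ppp1r1b itself did not follow that median, with normalized counts of 1503, 949 and 907 against 944 to 1867 elsewhere. Drd1, Penk and Six3 also overlapped the other libraries, and the rest of the list was higher in all 3. In all, 927 genes (6.15%) were higher in these 3 libraries than in all 6 others. With sex as a covariate the KO difference of Ebf1 was -0.59, and without the 4 libraries holding bulb RNA it was -0.73; for Sgcd the values were -0.35 and -0.38. Among the males, Ebf1 was 125 in the KO library and 152 to 282 in WT, and Sgcd 46.0 and 56.1 to 66.8. WT replicate 3, which held bulb RNA but was male, had 206 for Ebf1 and 66.8 for Sgcd. The parts of sex and of dissected tissue in Ebf1 and Sgcd cannot be told apart, since the females held both.

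**Figure D3:**
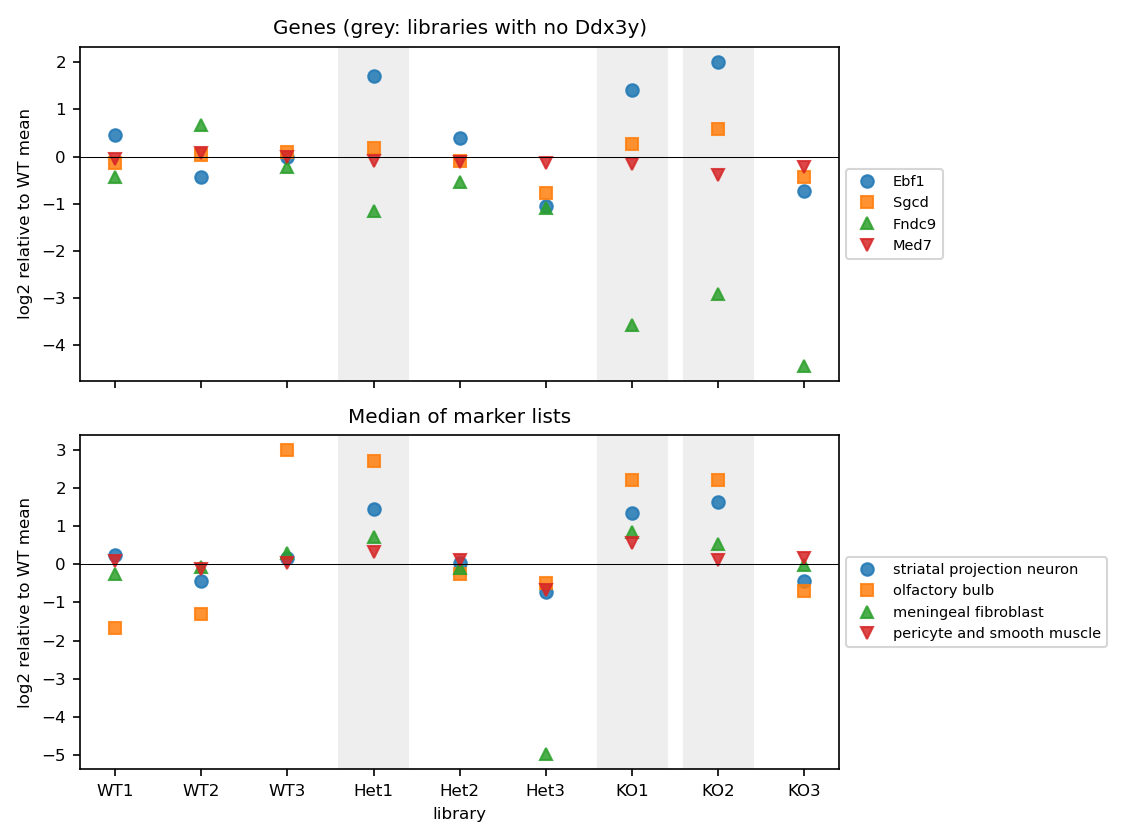
Upper panel: log2 level of Ebf1, Sgcd, Fndc9 and Med7 in each library relative to the WT mean. Lower panel: median over the markers of 4 cell types or tissues on the same scale. Grey bands mark the 3 libraries without Ddx3y, where Ebf1 and the median of the striatal markers are high. Fndc9 is low in all 3 KO libraries.

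Fndc9, Med7 and Thg1l kept their direction between KO and WT under the same checks. Among the libraries with bulb RNA, Fndc9 was 34.1 in WT, 17.5 in Het and 2.46 and 4.50 in KO. Among those without it, Fndc9 was 29.4 and 64.6 in WT, 27.4 and 18.3 in Het and 0.914 in KO. The order WT, Het, KO thus held within each set. The KO difference of Fndc9 was -3.92 with sex as a covariate and -4.54 without the libraries holding bulb RNA. With sex as a covariate, Med7 gave -0.25 ± 0.11 and Thg1l -0.17 ± 0.11. Without the libraries holding bulb RNA, the value was -0.23 for Med7 and -0.17 for Thg1l. The values without those libraries rest on 1 KO library.

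Het replicate 3 stood apart in another way, with 159 summed normalized counts of the 7 meningeal fibroblast markers, led by Col1a1, against 4615 to 10581 in the other libraries. Its endothelial (4863 against 8445 to 13741) and pericyte (5702 against 7797 to 11512) sums, led by Kdr and Rgs5, were the lowest as well. Both sums were higher in every KO library than in every WT library. The endothelial sum was 9577 to 13741 against 8445 to 9131, and the pericyte sum 8989 to 11512 against 7797 to 8664. Of the single markers in these lists, only Kdr, Pecam1 and Cspg4 were higher in KO without overlap. In KO replicate 2, Rgs5 (3941) lay below every WT library (3950 to 4632), as did Cldn5, Tek and Acta2. Het replicate 3 was also the lowest library for Sgcd (35.8), Ebf1 (99.3) and Nipal4 (3.23). The part of fibroblasts, endothelial cells and pericytes in those values was not tested. The 8 cortical excitatory neuron markers, led by Neurod6, were present in every library, none at 0, and summed to 67645 to 97175. The choroid plexus sum, led by Ttr, ran from 66.5 to 11907 and the erythroid sum, led by Hbb-bs, from 14816 to 52611. The keratinocyte sum, led by Krt1, ran from 299 to 424. Krt1 and Krt10 made up most of it, while Krt5 (0 to 5.69) and Krt14 (0 to 4.05) reached 0. In the choroid plexus list, Folr1 did so too.

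Compared per kb of exon, so that genes of different length can be set side by side, the WT levels of the 10 genes spanned from 373 normalized counts per kb for Adam19 to 3.78 for Nipal4. Adam19, Lsm11 (357) and Clint1 (307) were the highest, and neighbours in this order overlapped in their WT libraries. Med7 (249.4) and Thg1l (139) followed, each apart from its neighbours. Ebf1 (21.9) and Fndc9 (18.6) overlapped, then came Havcr2 (8.28) and Sgcd (7.54), which overlapped too. Cyfip2 had 1487 per kb. Among all genes tested, Fndc9 stood at percentile 13.3 and Cyfip2 at percentile 93.1.

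Position along the chromosome was described in windows around Cyfip2. Within 1 Mb, leaving Cyfip2 aside, 12 genes were tested and their median log2 difference between KO and WT was -0.23. Of these, 9 were below 0, and without overlap 4 were lower and 1 higher. From 1 to 5 Mb, 51 genes had a median of -0.0049, with 27 below 0, and without overlap 2 lower and 3 higher. For the 1131 tested genes of chromosome 11 beyond 5 Mb the median was -0.0061. Over all genes 51.6% were below 0, and without overlap 3.30% were lower and 3.17% higher. The 10 genes themselves had a median of -0.18 between KO and WT (7 below 0) and -0.14 between Het and WT (9 below 0). Without Fndc9 the medians of the other 9 were -0.15 and -0.11. Between Het and WT, 53.8% of all genes and 64.7% of those at 1 to 5 Mb were below 0.

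Only 3 further genes within 1 Mb were tested. Sox30, a testis transcription factor 176 kb away, had 12.03 ± 2.91 in WT, 8.56 ± 4.86 in Het and 15.9 ± 0.90 in KO (log2 0.40 ± 0.40 for KO against WT), higher in KO without overlap. The other 2 are gene models without a proper name. Another 8 genes of the table, among them Timd2, Havcr1 and Timd4, lay under the minimum mean of 10, with no library above 6.23.

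**Figure D4:**
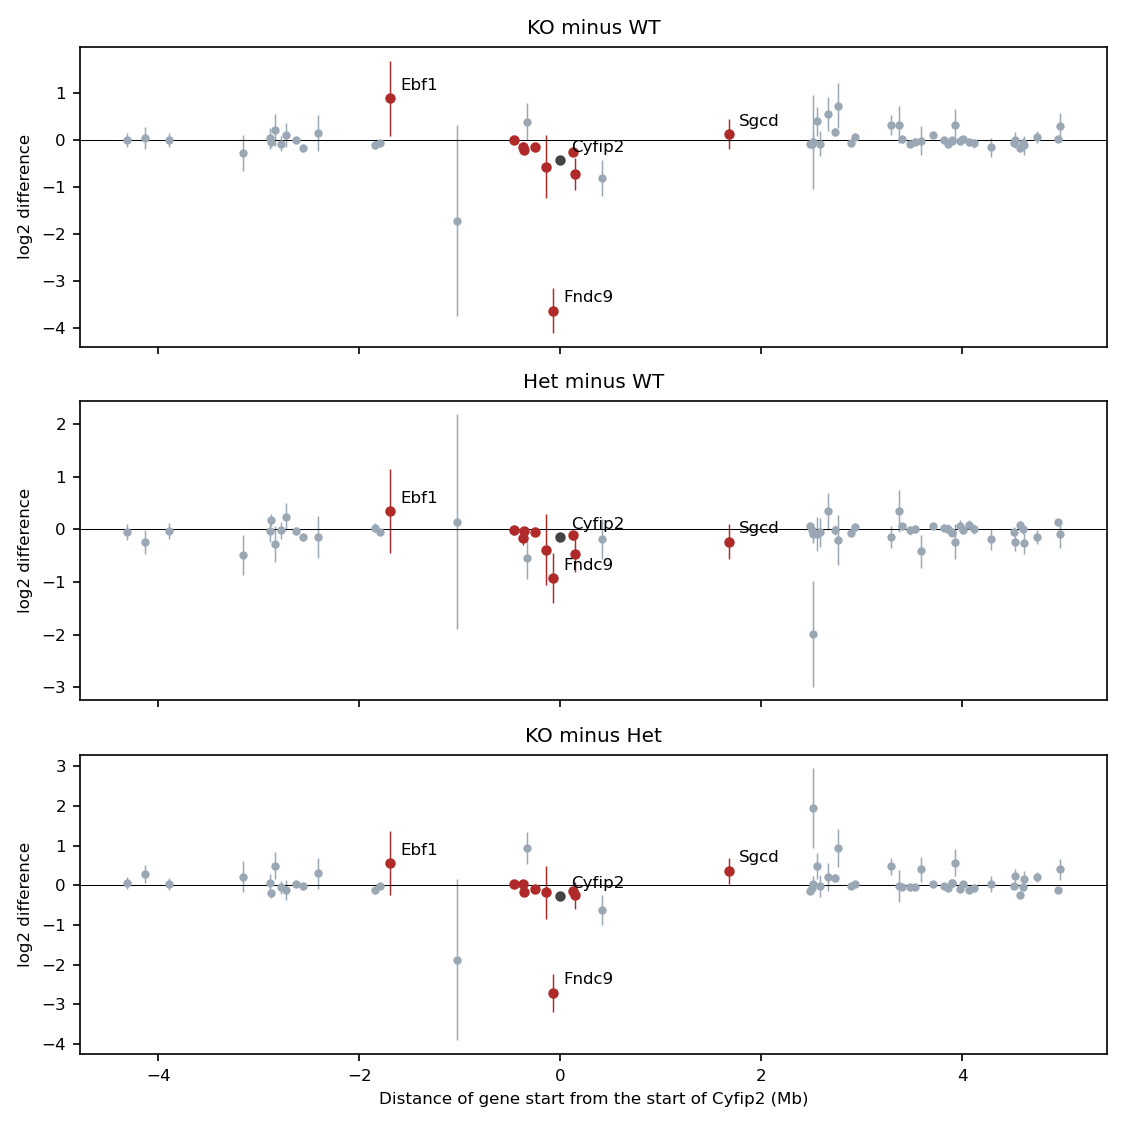
Log2 difference (vertical axis, ± SE) of each tested gene within 5 Mb against the distance of its start from that of Cyfip2 in Mb, for the 3 pairs of genotypes. Cyfip2 is dark, the 10 genes are red and other genes grey; Fndc9, at -3.64, -0.93 and -2.71, is the red point farthest below 0 in each panel.

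The libraries can also be used to ask which genes follow the pattern of Fndc9, measured as Pearson's correlation of log2 values over the 9 libraries. The 5 highest were Med26 (0.93), Pcdhb3 (0.90), Kiss1r (0.90), Pdcd6 (0.89) and Cox14 (0.89). Their mean was lower in KO than in WT by much smaller amounts. Med26, another Mediator subunit, measured 574 ± 10.5 in WT, 574 ± 12.5 in Het and 543 ± 7.34 in KO. The log2 difference was -0.22 ± 0.13 for Kiss1r, the kisspeptin receptor, -0.13 ± 0.05 for Pdcd6, a calcium-binding protein, and -0.14 ± 0.06 for Cox14, an assembly factor of mitochondrial complex IV. Cyfip2 came 9th of 15059 other genes (0.87), Med7 43rd (0.78) and Thg1l 68th (0.74). Havcr2 (0.51), Adam19 (0.36), Lsm11 (0.32), Nipal4 (0.21), Clint1 (0.11), Sgcd (-0.07) and Ebf1 (-0.23) were less alike. The 9 points share genotype, scaling and tissue, so these values are a description.

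Relatives of the 10 genes in the same families or complexes were described from lists chosen by function. Of 106 listed genes 95 were tested, and none passed an adjusted p of 0.05 in any pair of genotypes. Between KO and WT, at an unadjusted p under 0.05, 1 was lower, the Mediator subunit Med27 (-0.19 ± 0.07), and 1 higher, the syntrophin Sntb2 (0.46 ± 0.15). The median over the 95 was -0.0093, against -0.0042 over all genes. Between Het and WT, 3 were higher and 0 lower, among them the clathrin adaptor Gga3 (0.39 ± 0.11). Between KO and Het, 2 were higher and 5 lower, of which 4 were Mediator subunits. The shares of all genes at this p were 0.544% higher and 0.637% lower, 0.962% and 0.644%, and 1.42% and 2.17% for KO against WT, Het against WT and KO against Het.

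Mediator subunits other than Med7 had a median of -0.04 between KO and WT, with 24 of 30 below 0. Between KO and Het their median was -0.06, with 26 below 0. Over all genes, 51.6% were below 0 between KO and WT and 49.6% between KO and Het. After Med27 the smallest p was that of Med29, at 684 ± 5.69 in WT and 601 ± 51.8 in KO (-0.19 ± 0.09). The 12 genes of the U7 snRNP and histone 3′ end processing had a median of -0.09, all 12 below 0, with Lsm10 at -0.11 ± 0.09 and Cpsf2 at -0.08 ± 0.07. Of the histidyl-tRNA synthetases, which load the tRNA that Thg1l prepares, Hars2 gave -0.07 ± 0.06 and Hars -0.02 ± 0.07.

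Of the fibronectin type III domain relatives of Fndc9, 6 of 10 were tested, with a median of 0.03. Fndc4 gave -0.09 ± 0.08, and Fndc5, the precursor of irisin, gave -0.23 ± 0.23, the lowest of the 6. The ADAM proteases had a median of 0.06, with none of 10 below 0 (Adam12 0.52 ± 0.26, Adam10 0.07 ± 0.04). NIPA transporters gave a median of 0.07 over 4 (Nipa1 0.09 ± 0.08, Nipa2 0.06 ± 0.10). The list of clathrin adaptors, which also holds the membrane fusion protein Vti1b, gave -0.02 over 13 (Gga3 0.24 ± 0.11, Vti1b -0.12 ± 0.08).

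The dystrophin and sarcoglycan partners of Sgcd had a median of 0.20, with 2 of 12 below 0. Besides Sntb2, the sarcoglycan Sgce gave 0.20 ± 0.09. The endothelial and pericyte sums, though not most of their single markers, were also higher in every KO than in every WT library (above). Of the 3 KO libraries 2 were female, and no WT library was. The part of these cells and of sex in these values was not tested. Of the TIM receptors and their ligand, 1 of 4 was tested: Lgals9, the ligand galectin-9, at 233 ± 95.1 in WT and 341 ± 34.2 in KO (0.62 ± 0.38). The EBF family and its partners had a median of -0.02 over 5, with Ebf3 at -0.12 ± 0.44 and Ebf4 at -0.02 ± 0.10.

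The Fndc9 difference was recomputed under other ways of processing. Between KO and WT it ranged from -4.54 to -2.60, between KO and Het from -3.61 to -1.78, and between Het and WT from -1.15 to -0.59. The smallest differences of KO came with a pseudocount of 5, which pulls the low KO values up, and that of Het came without WT replicate 2. The adjusted p between KO and WT stayed above 0.05 in each, and came closest with quantile normalization (0.05001, limma).

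**Figure D5:**
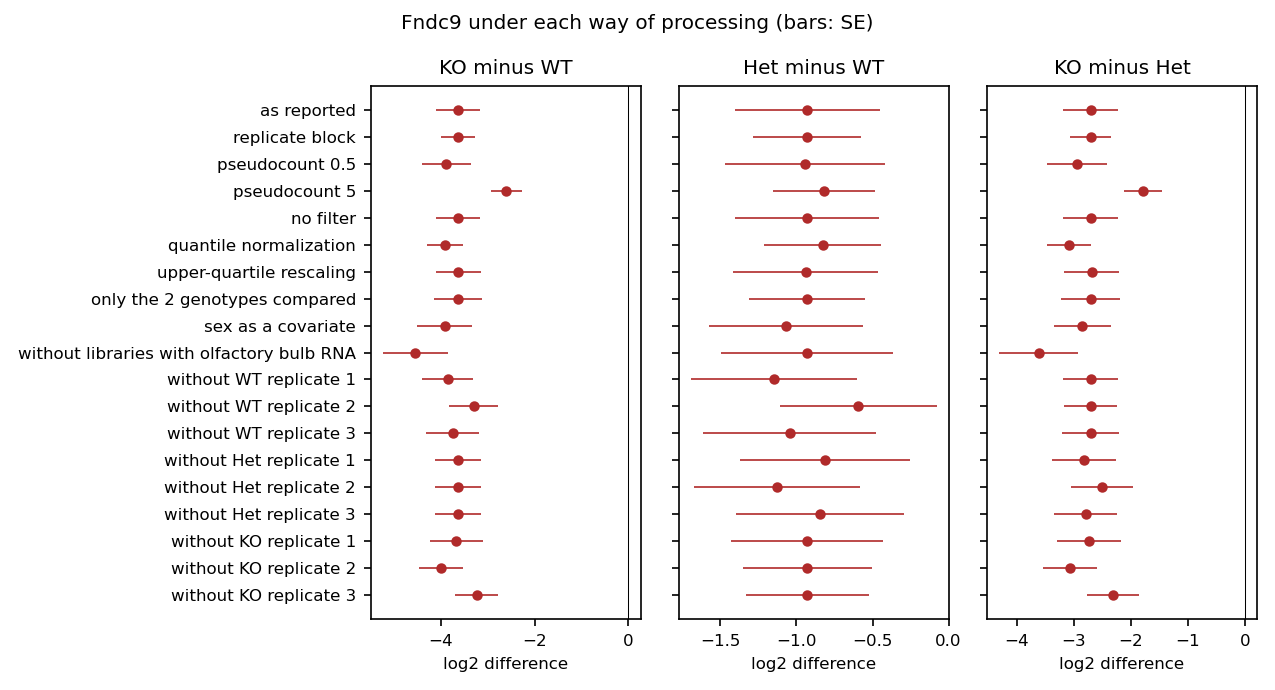
Log2 difference of Fndc9 (horizontal axis, ± SE) for the 3 pairs of genotypes as reported and under each other way of processing or with a library left out. Between KO and WT all points lie between -4.54 and -2.60.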

How the data were processed

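RNA from 9 libraries (3 per genotype) was measured, with groups and replicate numbers taken from the sample labels. A TruSeq Stranded mRNA kit was used, per the labels' protocols. The deposited table gives a signal per gene, in units of counts that the authors had scaled with 1 size factor per library, as headers and values show. Build GRCm38, R 3.6.0, DESeq2 1.19.11 and Salmon 0.11.2 stand, without their roles, in the submitters' processing notes. Totals were 36.0 to 38.6 M (M, mega) per library.

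The planned count test needs raw counts, so its stated fallback was used: limma 3.58.1 in R 4.3.3 (lmFit, then eBayes with a trend) on log2(value + 1), 1 mean per genotype over all 9 libraries, two-sided, for 15069 genes whose mean reached 10. All 10 genes passed this filter, Fndc9 and Nipal4 with a KO mean under 10. P-values were adjusted after Benjamini and Hochberg over all genes tested, at 0.05. The fit was tested on simulated data. Exact permutation tests (SciPy 1.17.1) compared 3 libraries with 3. Distances run between gene bodies of GENCODE release M21, in which 18783 IDs matched a symbol.

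Steps worth about 1 read were estimated from values below 6, of which 60.8% to 78.2% per library lay within 0.1 of a whole step. Whole reads were thus not recovered, and read numbers are approximate. Depth came to 29.5 to 54.4 M reads.

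Named were the 10 genes, Cyfip2, the other tested genes within 1 Mb with the 4 smallest p between KO and WT, 2 per list of relatives by p, the 5 most like Fndc9, and the highest gene of each marker list; 1 marker list is not reported here. Unnamed gene models were only counted. The genes and lists were chosen with earlier results of these data known. Alternatives were another pseudocount, filter, scaling or fit, sex, libraries without bulb RNA, a replicate block, and each library left out.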

Additional observations from a re-analysis of the deposited data

How the results depend on the processing

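No result of the 10 genes passed or lost an adjusted p of 0.05 under any alternative run. Of 31 log2 differences of these genes, 14 kept their sign throughout, among them all 4 of Fndc9 and all 3 of Med7, and 39 of 578 recomputed values changed sign. Genes called went from 0 to 1 when only the 2 genotypes compared were fitted (1 for Het against WT, 1 for KO against Het), and with a library left out they ranged from 0 to 1 in each of the 4 contrasts. The libraries whose absence gave 1 were KO replicate 3 (KO against WT), WT replicate 1, Het replicate 1 or KO replicate 3 (Het against WT), and WT replicate 1 or Het replicate 1 (for the Het level beside the midpoint, and for KO against Het). That gene was Lenep, singled out after its values were seen, or a gene model that carries only a number, and none of the 10. The labels name no pairing by replicate number. Same-numbered libraries of different genotypes correlated at -0.07 to 0.47, above 0.1 in 4 of 9 pairs. Of 9 libraries, 6 correlated best with one of their own number, a hint of pairing from the data only. The highest same-number values were 0.45 between Het and KO replicate 1 and 0.47 between Het and KO replicate 3. Each of these pairs also matched in sex and in bulb RNA, so pairing cannot be told apart from those. With the replicate block, 0 genes were called in each contrast. Fndc9 between KO and WT kept -3.64, with an SE of 0.36 against 0.48 without the block (limma adjusted p = 0.274). With sex as a covariate, values changed sign for Adam19 (0.000918 Het minus WT), Clint1 (-0.0877 KO minus WT, -0.0209 KO minus Het), Sgcd (-0.35 KO minus WT) and Ebf1 (-0.59 KO minus WT, -0.40 Het minus WT, -0.19 KO minus Het). Without the libraries holding olfactory bulb RNA, which leaves KO with 1 library assumed to vary like the others, values changed sign for Nipal4 (0.53 KO minus Het), Adam19 (0.0800 KO minus WT, 0.0434 Het minus WT, 0.0366 KO minus Het), Havcr2 (0.31 KO minus Het), Lsm11 (0.0218 Het minus WT, -0.0917 KO minus Het), Clint1 (-0.17 KO minus WT, -0.10 KO minus Het), Sgcd (-0.38 KO minus WT) and Ebf1 (-0.73 KO minus WT, -0.33 Het minus WT, -0.39 KO minus Het). With quantile normalization, values changed sign for Thg1l (0.0158 Het minus WT). With 1 library left out, the values that could change sign ranged from -0.86 to 0.28 for Nipal4 Het minus WT, -0.84 to 0.37 for Nipal4 KO minus Het, -0.0884 to 0.0234 for Adam19 Het minus WT, -0.52 to 0.0337 for Havcr2 KO minus Het, -0.0628 to 0.11 for Lsm11 KO minus Het, -0.0657 to 0.0815 for Clint1 KO minus WT. They also ranged from -0.0505 to 0.0256 for Clint1 Het minus WT, -0.0464 to 0.10 for Clint1 KO minus Het, -0.0837 to 0.42 for Sgcd KO minus WT, -0.43 to 0.0421 for Sgcd Het minus WT, -0.33 to 1.04 for Ebf1 Het minus WT, -0.15 to 1.36 for Ebf1 KO minus Het. The cause was not tested. A minimum mean of 50 gave no value for Fndc9, Nipal4 and Havcr2. Depth limits these 3 most: 1 read was worth 0.675 to 1.22 normalized counts.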
